A study of Homo sapiens with 8 samples.

Results

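The clustered protocadherin genes are described here in G401, an established human cell line grown from a malignant kidney rhabdoid tumor, which has lost SMARCB1, a core subunit of the mSWI/SNF chromatin remodelers. The members were all protein-coding genes of the alpha, beta and gamma protocadherin clusters, chosen by gene symbol, and came to 53 of the 69215 genes listed in each library. Total RNA was sequenced from G401 cells that carried a Tet-On transgene for either SMARCB1 or GFP. Both lines were treated for 12 h with doxycycline (Dox) at 0.1 µg/ml or with the solvent dimethylsulfoxide (DMSO), which gave 4 groups of 2 libraries named SMARCB1 DMSO, SMARCB1 Dox, GFP DMSO and GFP Dox. All groups share the G401 background and the loss of endogenous SMARCB1, and the GFP line serves as the control for Dox and for a foreign protein. Plates of a condition were harvested and pooled, and whether each line was a single clone is not given in the sources used here, so a difference between the lines and a difference made by the transgene at rest cannot be told apart. The 2 libraries of a group are replicates by their titles, and p-values measure only the spread between these libraries, which may be technical.

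Clustered protocadherins are cell-surface proteins of the cadherin family that bind their own kind on the neighbouring cell, and they are best known from neurons, where the combination on a cell serves as its barcode for telling self from non-self. Each alpha and gamma gene consists of a large variable exon with its own promoter, spliced to constant exons that all genes of its cluster share, whereas each beta gene is a single exon. A neuron transcribes a small set of these promoters, and the choice involves CTCF, cohesin and DNA methylation at the promoters. The C-type genes at the ends of the alpha and gamma clusters (PCDHAC1, PCDHAC2, PCDHGC3, PCDHGC4 and PCDHGC5) are under different control and are often expressed together. Reads that fall wholly in the shared constant exons belong to several genes at once and were not counted, so the values below come from the variable exons, from other exons that no second gene shares, and from the beta exons.

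Most of these promoters carry a short conserved element, the CGCT box, and the promoters of the members that lead the results below are shown here with that of a silent member for contrast. The sequences are the 120 bases before the RefSeq gene start on the plus strand of GRCh38.p14, 5′ to 3′, with each CGCT in capitals. Not every CGCT need be the conserved element. PCDHB2 (chr5:141094495-141094614), PCDHA12 (chr5:140875188-140875307) and PCDHAC1 (chr5:140926179-140926298) had the highest levels. PCDHAC2 (chr5:140966356-140966475) was higher with Dox than without it in the SMARCB1 line, a change not shown to differ from that in the GFP line. PCDHA2 (chr5:140794732-140794851) had no read in any library. These 5 were picked after their values were seen.
PCDHB2: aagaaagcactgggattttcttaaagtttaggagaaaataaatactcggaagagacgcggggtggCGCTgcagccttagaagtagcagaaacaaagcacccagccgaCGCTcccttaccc
PCDHA12: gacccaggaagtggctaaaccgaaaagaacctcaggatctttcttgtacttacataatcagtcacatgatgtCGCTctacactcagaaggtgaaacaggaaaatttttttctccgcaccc
PCDHAC1: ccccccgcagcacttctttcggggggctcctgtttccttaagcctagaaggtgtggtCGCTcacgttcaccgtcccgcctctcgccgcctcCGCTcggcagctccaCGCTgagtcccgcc
PCDHAC2: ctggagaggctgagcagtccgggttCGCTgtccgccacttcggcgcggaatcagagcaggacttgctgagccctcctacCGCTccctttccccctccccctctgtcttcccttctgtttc
PCDHA2: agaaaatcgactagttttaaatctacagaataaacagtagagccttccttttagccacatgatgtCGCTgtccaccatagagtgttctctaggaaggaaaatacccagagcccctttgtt

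Promoters of 300 bases (250 before and 50 after the start) were found in RefSeq for 47 of the 53 members. The window of 30 to 90 bases before the start, which was set after the positions were seen, held CGCT on the strand of the gene in 42 of the 47 (89.4%) and in 18.8% of 27305 promoters of all genes. On the other strand the same window held it in 9 members (19.1%) and again in 18.8% of all promoters. Only the letters CGCT were searched for, which 18.8% of all promoters have in this window. A match therefore need not be the conserved element. In the 42 members the match began 38 to 84 bases before the start, with a median of 55. A match was present in 17 of the 19 members with a promoter that passed the expression filter used below, and in 25 of the 28 that did not pass. PCDHA2, without a read, and PCDHB2, the highest member, both had CGCT 55 bases before the start. The CTCF core searched as CCANNAGNNGGC on both strands was found in 1 member, PCDHB9 (2.13%), and in 2.45% of all promoters. An exact search misses sites that differ from this string, so it does not tell which members have a CTCF site. Of all 8-base words, GTGGCGCT was shared by the most members, 13 of 47 (27.7%), and occurred in 0.637% of all promoters. It contains CGCT, as did 12 of the 17 words found in at least 9 members.

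**Figure D1:**
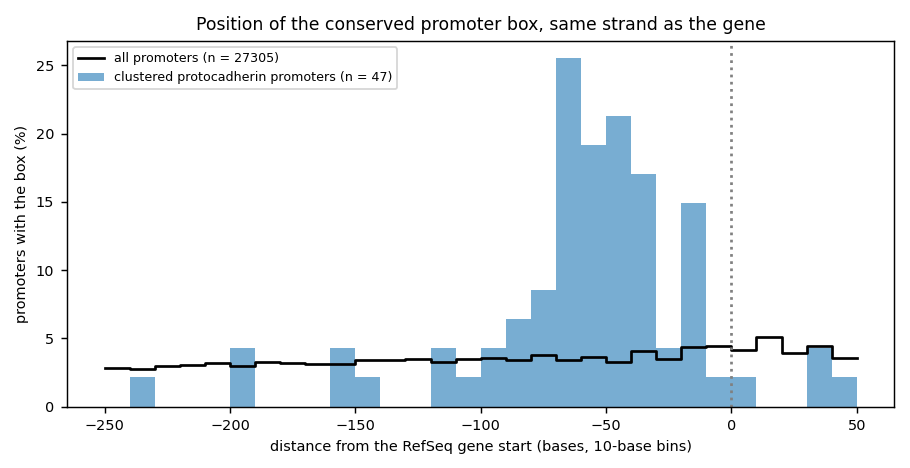
Share of promoters (%) with CGCT, the letters of the box, on the strand of the gene in bins of 10 bases by distance from the RefSeq gene start, for 47 clustered protocadherin promoters (bars) and 27305 promoters of all genes (line). The tallest bars lie between 70 and 30 bases before the start, where the line stays below 5%.

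Reads assigned to genes came to between 29632090 and 37597477 per library, of which 2393 to 3385 lay in the 53 members. SMARCB1 matched the labels, with 30474 and 29383 reads in SMARCB1 Dox, 10 and 21 in SMARCB1 DMSO and none in the 4 GFP libraries. The mitochondrial share was between 18.9% and 27.9% and was highest in SMARCB1 DMSO replicate 1, and the summed member level as CPM on library totals was lowest in SMARCB1 Dox replicate 1 (67.4, against 82.6 to 90.03 in the other 7 libraries). The rhabdoid markers VIM, KRT8 and KRT18 were abundant, at group means of at least 707 CPM, 339 CPM and 227 CPM. Of 10 neuron markers, 8 had at most 4 reads in any library, and those detected were TUBB3 (140 to 360 reads) and SYP (45 to 85 reads). Levels are given as CPM, or counts relative to library size, after scaling with TMM factors, and members are compared with each other only as CPM per kb of exon that no other gene shares. Reads that match more than 1 place were left out. The share of 100-base words found elsewhere in the protocadherin locus was 0% for PCDHAC1 and PCDHAC2, 11.5% for PCDHB2 and 25.5% for PCDHB8. Such losses may thus differ between members and were not corrected.

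RNA of the clustered protocadherins was concentrated in a few members. Of the 53, 21 passed the expression filter, 26 had at least 1 read in every library, 13 had at least 10 and 4 had at least 100. PCDHB2 alone took 53.6% of all member reads, followed by PCDHA12 with 8.83%, PCDHAC1 with 8.32%, PCDHA11 with 4.98% and PCDHB3 with 4.04%. By type, the filter was passed by 6 of 13 alpha, both alpha C-type, 9 of 16 beta, 2 of 12 gamma A, 2 of 7 gamma B and 0 of 3 gamma C-type genes. The 32 others had at most 17 reads in any library. PCDHA2 and PCDHA9 had 0 reads in all 8 libraries, which by a limit of 3 counts allows up to 0.0782 to 0.103 CPM in a single library. In bulk RNA, fewer expressing cells and less RNA per cell cannot be told apart, so these levels do not tell whether every cell uses the same members.

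**Figure D2:**
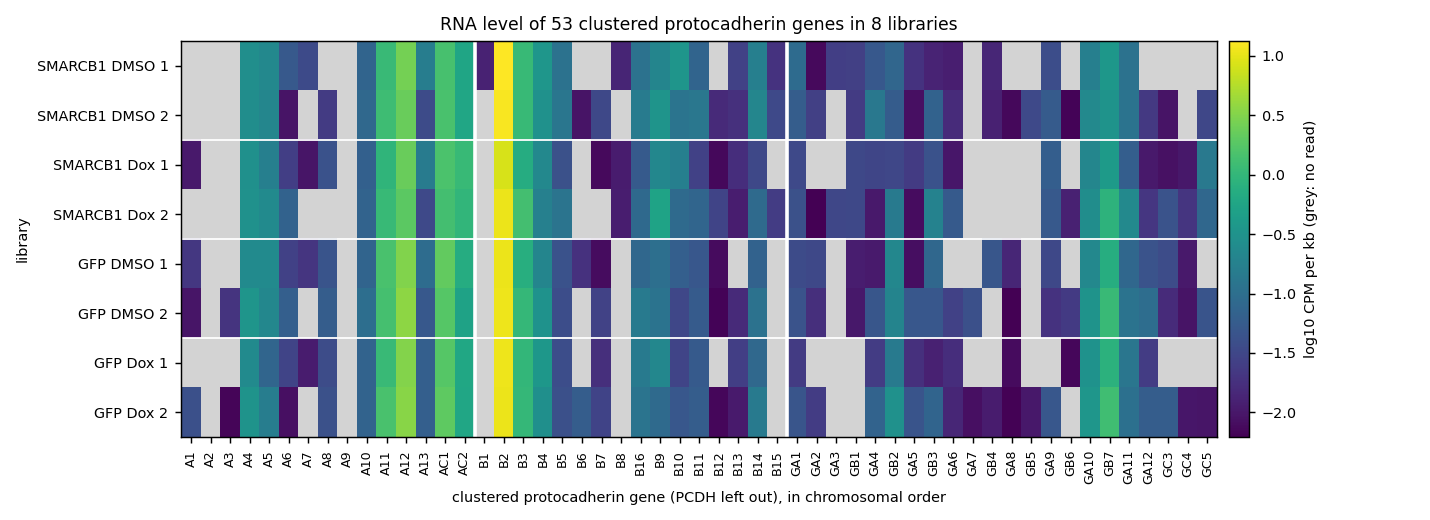
RNA level (log10 CPM per kb, colour) of the 53 members in chromosomal order (columns) in 8 libraries (rows), with grey for no read and white lines between the clusters and the groups. The bright columns of PCDHB2, PCDHA12 and PCDHAC1 run through all 8 libraries.

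PCDHB2 (ENSG00000112852, chr5:141094606-141098703, plus strand, a single-exon gene) was the highest member in every library. In the SMARCB1 line it had 54.9 and 50.7 CPM without Dox and 34.0 and 43.2 with it, and in the GFP line 44.3 and 44.8 without Dox and 45.7 and 43.3 with it. The SMARCB1 DMSO libraries lay highest and the SMARCB1 Dox libraries lowest, without overlap with each other or with the GFP libraries. Of the beta cluster, PCDHB2 took between 80.4% and 88.5% of the summed CPM per kb in the 8 libraries, and PCDHB3, second in all 8, took between 6.21% and 10.2%. The effective number of beta members, the inverse of the sum of their squared shares, was thus close to 1, at 1.42 ± 0.0295 (SD, n = 2) without Dox and 1.45 ± 0.0901 with Dox in the SMARCB1 line, and 1.31 ± 0.0645 and 1.38 ± 0.0078 in the GFP line.

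The alpha cluster was spread over more members. PCDHA12 (ENSG00000251664, chr5:140875302-141012347), the next to last of the alternately used alpha genes, led it in all 8 libraries with 31.7% to 44.8% of the summed CPM per kb, and the C-type PCDHAC1 (ENSG00000248383) followed with 21.5% to 25.6%. PCDHA12 had 6.90 and 5.91 CPM without Dox and 6.07 and 4.98 with it in the SMARCB1 line, against 8.05 and 9.54 without Dox and 8.38 and 8.94 with it in the GFP line. All 4 GFP libraries thus lay above all 4 SMARCB1 libraries. PCDHAC1 had 6.004 and 6.22 CPM without Dox and 6.24 and 5.58 with it in the SMARCB1 line, against 8.71 and 7.32, and 7.24 and 8.17, in the GFP line, with the same separation of the lines. The effective number of alpha members was 4.06 ± 0.0559 without Dox and 4.56 ± 0.192 with Dox in the SMARCB1 line, and 3.75 ± 0.294 and 3.54 ± 0.134 in the GFP line. The members at the start of the cluster, PCDHA1, PCDHA2 and PCDHA3, held at most 4 reads in any library, whereas PCDHA4, the next gene, held 79 to 137.

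The gamma cluster was the weakest, with 2.93% of the member reads in the 12 gamma A genes, 3.36% in the 7 gamma B genes and 0.250% in the 3 gamma C-type genes. PCDHGB7 (ENSG00000254122, chr5:141417645-141512975) led it in all 8 libraries with 25.5% to 54.8% of the summed CPM per kb, and PCDHGA10, which lies beside it, followed with 12.7% to 19.4%. The effective number of gamma members was 6.47 ± 1.47 without Dox and 4.87 ± 0.358 with Dox in the SMARCB1 line, and 3.74 ± 0.345 and 3.12 ± 0.414 in the GFP line, from 98 to 288 reads per library. The gamma C-type genes PCDHGC3, PCDHGC4 and PCDHGC5 together had 0 to 16 of the 230 to 380 reads per library of the 5 C-type genes, and PCDHAC1 and PCDHAC2 had the rest. With so few reads, the make-up of the gamma cluster was measured far less precisely than that of the beta cluster.

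Across clusters the leading members kept their order. PCDHB2 had 11.01 CPM per kb on average over the 8 libraries, PCDHA12 2.84, PCDHAC1 1.67 and PCDHA11 1.23, and each of the first 3 exceeded the next in 8 of 8 libraries. PCDHA11 exceeded PCDHB3 (1.01 CPM per kb) in 7 of 8 libraries, and PCDHB3 exceeded PCDHGB7 (0.747) in 6. PCDHGB7 and PCDHAC2 (0.704) could not be ordered, since each was higher in 4 libraries, nor could PCDHA4, PCDHB4, PCDHGA10 and PCDHB9, at 0.223 to 0.286 CPM per kb. PCDHA4 was divided by 10557 annotated bases and PCDHB4 by 3806, so the place of PCDHA4 depends on its annotated exon length. Of the 10 highest members of each group, 8 were common to all 4 groups. The rank correlation of the 53 members between the lines, on group means in CPM per kb, was 0.840 in DMSO and 0.838 in Dox. Between replicates of a group, on single libraries in CPM, it was 0.827 to 0.878. Means and single libraries differ in noise, so these values do not tell whether the lines differ more than replicates. Each correlation is a description across genes, which are not independent, and all members share the depth of their library.

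Whether the lines differed in the members they used was examined in DMSO, before induction, by comparing SMARCB1 DMSO with GFP DMSO. Of the 21 members tested, 3 were called at an adjusted p under 0.05 (14.3%), PCDHB10 higher and PCDHGB7 and PCDHA12 lower in the SMARCB1 line, whereas 32% of all 15931 genes tested were called (edgeR quasi-likelihood test, Benjamini-Hochberg), 16.3% higher and 15.7% lower. The 21 members had a median log2 fold change of 0.22, against 0.01 for all genes tested. Of the 21, 12 did not overlap between the groups, and 64.7% of all genes tested did not.

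PCDHGB7 differed most clearly. It had 0.995 and 0.880 CPM in SMARCB1 DMSO and 2.04 and 3.18 in GFP DMSO, from 29, 29, 69 and 122 reads. Both SMARCB1 DMSO libraries lay below both GFP DMSO libraries. The level was 2.80-fold lower in the SMARCB1 line (log2 fold change -1.49, SE 0.348, edgeR adjusted p 0.0021), and it was called under all 11 alternatives tried. PCDHGB2, the other gamma B gene tested, had 6 and 5 reads against 19 and 20 and a log2 fold change of -1.59 that missed the threshold (edgeR, adjusted p 0.0658), and it passed the filter only through the GFP line, where it was higher. PCDHA12, whose values are given above, was also lower (log2 fold change -0.46, SE 0.155, edgeR adjusted p 0.0265). This call was lost without GFP DMSO replicate 2 (-0.34, adjusted p 0.247 by edgeR), without SMARCB1 DMSO replicate 2 (-0.35, adjusted p 0.177) and with DESeq2 (adjusted p 0.0628). PCDHAC1 was at -0.39 (edgeR, adjusted p 0.0572).

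The beta genes lay on the other side. All 9 beta members tested had a positive log2 fold change in DMSO, and 7 of the 9 had both SMARCB1 DMSO libraries above both GFP DMSO libraries, as had 33.1% of all genes tested. Of these, PCDHB5, PCDHB10 and PCDHB11 passed the expression filter only through libraries of the SMARCB1 line, where they were higher, so the count for the 9 follows in part from the filter. The other 6 passed on the GFP libraries alone and were also positive. The 7 beta genes that did not pass had 24 reads in all in SMARCB1 DMSO and 12 in GFP DMSO, with PCDHB6 (1 against 2 reads) and PCDHB7 (4 against 5) lower in the SMARCB1 line. Of the 9, PCDHB10 was called, and 5 had an unadjusted p under 0.05 (55.6%, against 40.9% of all genes tested). PCDHB10 had 1.13 and 0.394 CPM in SMARCB1 DMSO and 0.207 and 0.104 in GFP DMSO, from 33, 13, 7 and 4 reads, so the groups did not overlap but the SMARCB1 replicates differed. The log2 fold change came to 2.27 (SE 0.646, edgeR adjusted p 0.0093), for a gene that was tested only because of its level in the SMARCB1 line. Without SMARCB1 DMSO replicate 1 it was 1.34 (edgeR, adjusted p 0.272), and without GFP DMSO replicate 2 it was 1.84 (adjusted p 0.12). PCDHB10 also shares 24.7% of its 100-base words with other parts of the protocadherin locus, so part of its reads may not have been assigned. PCDHB2, with the most reads, was at 0.24 (edgeR, adjusted p 0.0645), and PCDHB9 at 1.29 (adjusted p 0.0525). All 9 values stayed positive under the other scalings; without GFP DMSO replicate 1, and also without SMARCB1 DMSO replicate 2, 8 of the 9 did.

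**Figure D3:**
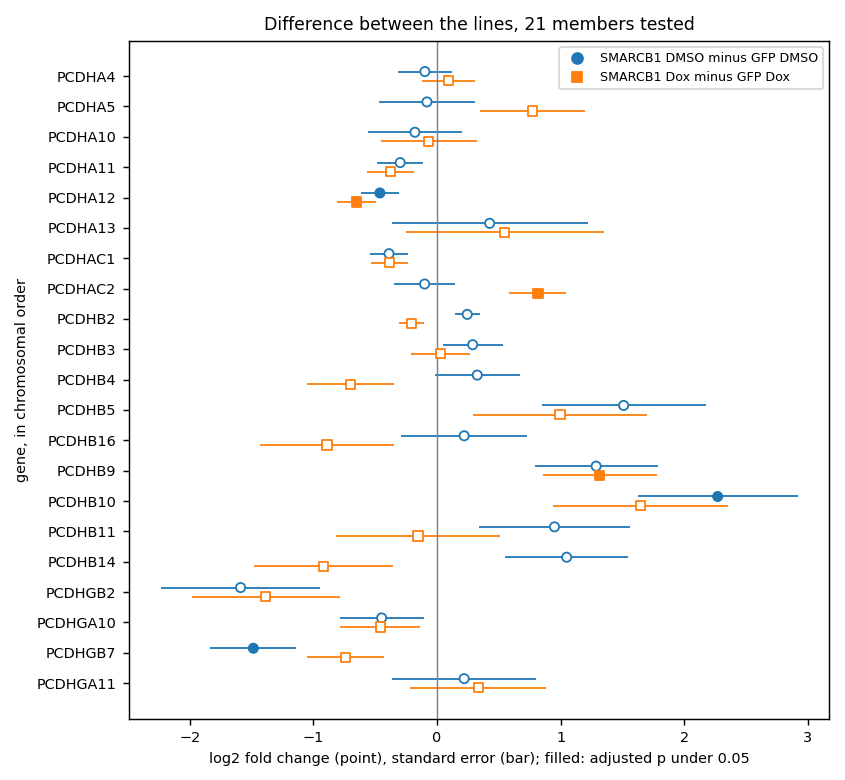
Log2 fold change (points) with standard error (bars) of the 21 members tested between the SMARCB1 line and the GFP line, in DMSO (circles) and in Dox (squares), filled where the adjusted p was under 0.05. PCDHA12 is filled in both, and the 9 beta genes lie right of 0 in DMSO.

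The lines were compared again in the 4 Dox libraries, which share no library with the DMSO comparison but in which SMARCB1 is present in only one line. Again 3 of 21 members were called (14.3%, against 38.8% of all genes tested, 19.6% higher and 19.2% lower), PCDHA12 lower and PCDHAC2 and PCDHB9 higher in the SMARCB1 line. Of the 21, 12 did not overlap between the groups, and 68.2% of all genes tested did not. PCDHA12 was at -0.65 (SE 0.157, edgeR adjusted p 0.0021) and was called under all 11 alternatives, so it was the member called lower in the SMARCB1 line in both pairs of groups. PCDHAC1 had almost the same value as in DMSO, -0.39 (edgeR, adjusted p 0.0504).

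PCDHB9 had 0.871 and 2.15 CPM in SMARCB1 Dox and 0.877 and 0.355 in GFP Dox, so the groups overlapped. Its log2 fold change of 1.32 (edgeR, adjusted p 0.0275) fell to 0.53 without SMARCB1 Dox replicate 2 (adjusted p 0.509) and to 0.78 without GFP Dox replicate 2 (adjusted p 0.292), rose to 2.07 without GFP Dox replicate 1 (adjusted p 0.0111), and was not called by DESeq2 (adjusted p 0.0864). PCDHGB7 was at -0.74 (edgeR, adjusted p 0.0638), with 1.12 and 2.46 CPM in SMARCB1 Dox and 2.40 and 3.55 in GFP Dox, which overlapped. It ranged from -0.28 without SMARCB1 Dox replicate 1 (edgeR, adjusted p 0.559) to -1.41 without SMARCB1 Dox replicate 2 (adjusted p 0.00441), with -0.43 without GFP Dox replicate 2 (adjusted p 0.455) and -0.99 without GFP Dox replicate 1 (adjusted p 0.0387), and was called in 7 of 11 alternatives. PCDHB10 was at 1.65 (edgeR, adjusted p 0.0719), and at 1.09 without SMARCB1 Dox replicate 1 (adjusted p 0.430). The beta genes were no longer on one side, with 4 positive and 5 negative values, and PCDHB2 was at -0.21 (edgeR, adjusted p 0.113).

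The SMARCB1 line was then compared with and without Dox, where Dox and SMARCB1 re-expression change together. Of the 21 members, 3 were called (14.3%, against 14% of all genes tested, of which 8.33% rose and 5.69% fell), a share near that of all genes: PCDHAC2 rose, and PCDHB2 and PCDHB14 fell. The median log2 fold change of the 21 was -0.08. Among them, 9 did not overlap between the groups, and 51.2% of all genes tested did not.

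PCDHAC2 (ENSG00000243232, chr5:140966470-141012347), the C-type gene nearest to the constant exons of the alpha cluster, had 1.89 and 1.91 CPM before and 3.57 and 3.23 after Dox in the SMARCB1 line, against 2.40 and 1.69, and 1.95 and 1.91, in the GFP line. The SMARCB1 Dox libraries thus stood above the 6 others, which did not exceed 2.40 CPM. The level rose 1.79-fold (log2 fold change 0.84, SE 0.233, edgeR adjusted p 0.0178). It kept a value of 0.77 to 0.93 under the 11 alternatives and was called in 7 of them. The calls were lost without SMARCB1 DMSO replicate 1 (0.83, adjusted p 0.0773 by edgeR), without SMARCB1 DMSO replicate 2 (0.85, 0.0631), without SMARCB1 Dox replicate 1 (0.77, 0.115) and with DESeq2 (0.84, 0.0609). PCDHAC1, the neighbouring C-type gene, was at -0.05 (edgeR, adjusted p 0.895). Between the lines in Dox, PCDHAC2 was at 0.82 (edgeR, adjusted p 0.0072), which was called also under each alternative but the one without SMARCB1 Dox replicate 1 (0.74, adjusted p 0.0541). Both comparisons use the same SMARCB1 Dox libraries.

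The mean of PCDHB2 was 52.8 ± 2.96 CPM without Dox and fell to 38.6 ± 6.49 with it (SD, n = 2; log2 fold change -0.45, SE 0.0997, edgeR adjusted p 0.0034). Of the SMARCB1 Dox libraries, replicate 1, which had the fewest member reads for its depth, had the lower level. Without it the value was -0.29 and was not called (edgeR, adjusted p 0.097). PCDHB2 was called under the other 10 alternatives. The sum over all 53 members, most of which was PCDHB2, was 89.2 ± 2.96 CPM without Dox and 74.6 ± 10.5 with Dox in the SMARCB1 line, and 85.8 ± 3.36 and 85.3 ± 2.76 in the GFP line.

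The other beta genes were low. PCDHB14 had 0.720 and 0.880 CPM in SMARCB1 DMSO and 0.140 and 0.372 in SMARCB1 Dox, from 21, 29, 5 and 13 reads, against 0.296 to 0.601 CPM in the GFP libraries. The Dox libraries lay below the DMSO libraries (log2 fold change -1.64, SE 0.534, edgeR adjusted p 0.0438). It was called in 6 of the 11 alternatives. Leaving out SMARCB1 Dox replicate 2 moved it to -2.48 (edgeR, adjusted p 0.0398), SMARCB1 Dox replicate 1 to -1.10 (edgeR, adjusted p 0.356), SMARCB1 DMSO replicate 1 to -1.77 (0.098) and SMARCB1 DMSO replicate 2 to -1.48 (0.184). DESeq2 did not call it (-1.64, adjusted p 0.131), nor did a fit of only the groups compared (adjusted p 0.0506). Of the 9 beta members tested, 8 had a negative log2 fold change with Dox in the SMARCB1 line, and PCDHB9 was at 0.47. The comparison of the lines in DMSO uses the same SMARCB1 DMSO libraries with the opposite sign. The positive beta values there and the negative ones here are therefore not separate results. PCDHB5, PCDHB10 and PCDHB11, all negative, would not have passed the filter without the SMARCB1 DMSO libraries, and of the other 6, 5 were negative. In 4 of the 9 both Dox libraries lay below both DMSO libraries, as in 25.2% of all genes tested. Between 7 and 9 of the 9 were negative under the alternatives, 7 without SMARCB1 DMSO replicate 1, 7 without SMARCB1 Dox replicate 1 and 7 when scaled to library totals. The mitochondrial share was 27.9% and 23.9% in SMARCB1 DMSO and 22.9% and 21.3% in SMARCB1 Dox, and its part in these values was not tested.

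All 4 gamma genes tested had positive values, as had 7844 of all 15931 genes tested, and none was called. With Dox in the GFP line the same 4 were also positive, at 0.15 to 0.26. In SMARCB1 Dox replicate 1, PCDHGB2 with 3 reads and PCDHGA11 with 8 lay below both SMARCB1 DMSO libraries. In SMARCB1 Dox replicate 2 they had 13 and 29 reads. PCDHGB7 had 0.995 and 0.880 CPM in SMARCB1 DMSO and 1.12 and 2.46 in SMARCB1 Dox, a log2 fold change of 0.93 (edgeR, adjusted p 0.0958). It was at 0.26 without SMARCB1 Dox replicate 2 (edgeR, adjusted p 0.755). It was called in 4 of 11 alternatives: without SMARCB1 Dox replicate 1 (1.39, adjusted p 0.0184 by edgeR), when scaled to library totals (1.03, 0.0327), without the expression filter (0.94, 0.0137) and with the replicate block (0.90, 0.0352). PCDHGC5, a C-type gene that did not pass the filter, had 0 and 3 reads before and 14 and 8 after Dox in the SMARCB1 line, against 0 and 5, and 0 and 1, in the GFP line, and it was singled out after these counts were seen. The ratio of its summed and scaled reads, SMARCB1 Dox over SMARCB1 DMSO, was 6.46 with an exact 95% interval of 1.94 to 33.7, which covers counting error only and compares these libraries. Since PCDHGC5 was chosen by these same counts, the interval is no test of a change.

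**Figure D4:**
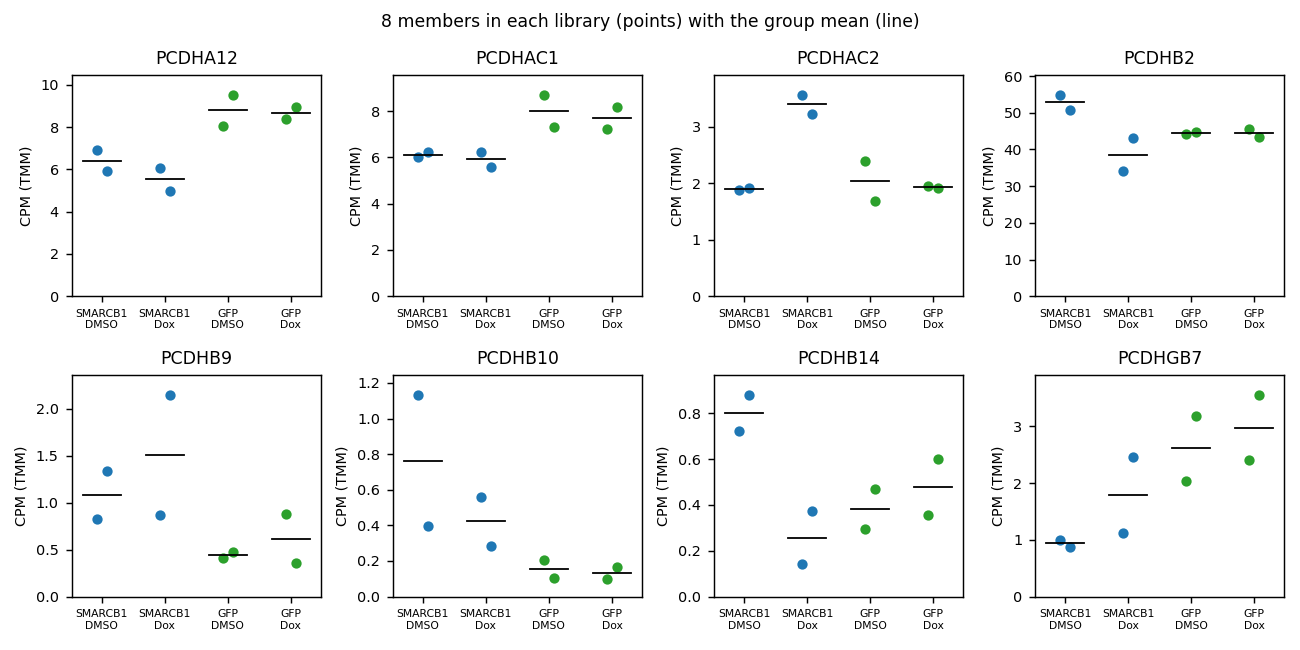
CPM of 8 members in each library (points) by group, with the group mean (line) and axes that start at 0. PCDHAC2 is highest in SMARCB1 Dox, PCDHB2 is lowest there, and PCDHA12 and PCDHAC1 are higher in all GFP libraries than in all SMARCB1 libraries.

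Dox in the GFP line served as the control. None of the 21 members and none of the 15931 genes were called there (0% by edgeR, and none by DESeq2), with 266 genes at an unadjusted p under 0.05 by edgeR and 103 by DESeq2. Between the groups 2 members did not overlap, against 26.8% of all genes tested. Among the members PCDHA5 had such a p, with 35 reads in each library without Dox and 10 and 25 with Dox (log2 fold change -0.92). PCDHAC2 was at -0.08 (standard error 0.242) and PCDHB2 at -0.0022 (standard error 0.0993). Of the 9 beta members, 6 were positive and 3 negative, with a median of 0.18.

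The difference between the Dox effects of the lines was then tested directly. None of the 21 members were called (4.71% of all genes tested were, 3.07% higher and 1.64% lower in the SMARCB1 line), and 4 had an unadjusted p under 0.05 (19%, against 16.2% of all genes tested). PCDHB2 came closest (-0.45, SE 0.141, edgeR adjusted p 0.0761). It was at -0.63 and called without SMARCB1 Dox replicate 2 (edgeR, adjusted p 0.00755), and at -0.28 without SMARCB1 Dox replicate 1 (adjusted p 0.345). PCDHAC2 was at 0.92 (standard error 0.336, adjusted p 0.147 by edgeR) and PCDHB14 at -1.96 (standard error 0.752, adjusted p 0.17). Leaving out 1 library moved PCDHAC2 to between 0.65 and 1.16 and PCDHB14 to between -2.81 and -1.42, with neither called (edgeR, lowest adjusted p 0.0994 and 0.102). The changes of these members with SMARCB1 were therefore not shown to differ from those with GFP at this threshold. The induced gene SMARCB1, without a read in the GFP libraries, was at 10.7 and was not called in this test either. A missing call here thus does not show that the effects were alike.

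**Figure D5:**
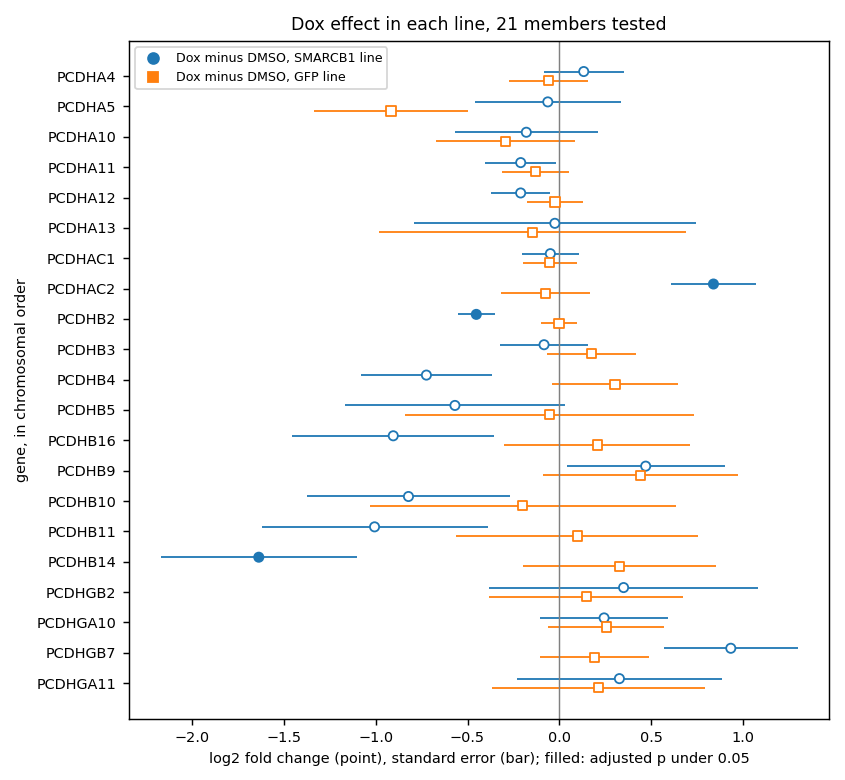
Log2 fold change (points) with standard error (bars) of the 21 members tested with and without Dox in the SMARCB1 line (circles) and in the GFP line (squares), filled where the adjusted p was under 0.05. PCDHAC2, PCDHB2 and PCDHB14 are filled in the SMARCB1 line, and no square is filled.

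Factors known for promoter choice and insulation at these clusters were followed as a list of 33 genes, of which 32 were tested. CTCF, the insulator protein that binds most of these promoters, had group means of 88.4 to 96.3 CPM and was not called in any comparison. In DMSO 11 of the 32 were called (34.4%, against 32% of all genes), all lower in the SMARCB1 line (15.7% of all genes were called lower), with a list median of -0.13. The DNA methyltransferase DNMT3B was at 34.3 ± 1.93 CPM in SMARCB1 DMSO and 86.0 ± 1.61 in GFP DMSO, a log2 fold change of -1.33 (edgeR, adjusted p 5.38e-11), and the REST corepressor RCOR1 was at -0.69 (adjusted p 4.05e-07). With Dox in the SMARCB1 line, DNMT3B rose by 0.69 on the log2 scale (edgeR, adjusted p 1.13e-05), the methyltransferase DNMT3A by 0.63 (adjusted p 0.00978) and UHRF1, which guides maintenance methylation, by 0.41 (adjusted p 0.00308). DNMT3A was not called without SMARCB1 DMSO replicate 1 (0.44, adjusted p 0.144 by edgeR) or SMARCB1 Dox replicate 2 (0.51, 0.0866). LRIF1, a partner of the silencing protein SMCHD1, fell by 0.45 (edgeR, adjusted p 0.00129). The 28 others were not called with Dox (12.5% called, against 14% of all genes), and the list median was 0.08.

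Of 26 non-clustered protocadherins and related cadherins, 13 were tested, and 7 were called higher and 1 lower in SMARCB1 DMSO than in GFP DMSO, which is 61.5% of the 13 against 32% of all genes (16.3% higher and 15.7% lower), with a list median of 0.65. CELSR1, a planar polarity cadherin, was at 31.5 ± 1.08 CPM against 16.4 ± 2.16 (log2 fold change 0.94, edgeR adjusted p 1.95e-06), and CELSR3 at 0.48 (adjusted p 0.000482). PCDH10, a protocadherin outside the clusters, fell with Dox in the SMARCB1 line by 1.37 on the log2 scale (edgeR, adjusted p 0.00539), and CELSR2 rose by 0.38 (adjusted p 0.0239). PCDH10 lies under 5 CPM and was named after its value was seen, and its call was not followed under the alternatives. CELSR2 was not called without SMARCB1 Dox replicate 2 (0.21, adjusted p 0.313 by edgeR), SMARCB1 DMSO replicate 1 (0.36, 0.117) or SMARCB1 DMSO replicate 2 (0.41, 0.0556), or with the block and the GC trend removed (0.26, 0.0573). Of 30 classical cadherins and catenins, 9 were tested, 2 were called higher and 2 lower in DMSO (44.4% against 32% of all genes), and 1 was called with Dox in the SMARCB1 line (11.1% against 14%). This was JUP, the junction protein plakoglobin, which rose from 39.4 ± 3.47 to 76.0 ± 8.30 CPM (log2 fold change 0.95, edgeR adjusted p 7.39e-07). The GFP line had 74.8 ± 5.97 CPM of JUP without Dox and 82.1 ± 5.53 with it. In DMSO, JUP was thus lower in the SMARCB1 line (-0.92, edgeR adjusted p 1.08e-07), and with Dox it came near the GFP level.

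Among 25 genes for binding partners and proteolytic processing of protocadherins, 24 were tested, 8 were called higher and 5 lower in DMSO (54.2% against 32% of all genes), and 2 higher and 1 lower with Dox in the SMARCB1 line (12.5% against 14%). NLGN1, a synaptic adhesion protein, had 72.9 ± 2.79 CPM in SMARCB1 DMSO and 0.536 ± 0.0887 in GFP DMSO, and the gamma-secretase subunit NCSTN was at 0.52 (edgeR, adjusted p 8.30e-05). Of 24 neighbours of the clusters on chromosome 5, 18 were tested, of which 3 were called higher in DMSO (16.7% against 32% of all genes) and 1 lower with Dox in the SMARCB1 line (5.56% against 14%). TAF7, a general transcription factor subunit encoded between the beta and gamma clusters, had group means of 28.5 to 30.5 CPM and was not called in any comparison. SLC25A2, which also lies there, had at most 2 reads. RNF14, beyond the gamma cluster, fell from 65.8 ± 0.399 to 49.6 ± 0.362 CPM with Dox in the SMARCB1 line (log2 fold change -0.41, edgeR adjusted p 0.00133). The 6 pseudogenes and cluster RNAs that are no members had at most 8 reads in any library.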

How the data were processed

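Deposited files held unnormalized counts of reads for each gene. Per the study's methods, the authors aligned with STAR and counted exon reads with HTSeq (intersection-strict, GENCODE 42), and the submitters' processing notes name hg38; versions and the strand setting are not given in the sources used here. Genes lying wholly under exons of the other strand still held reads (205 of 816), so counting appeared to use strand. The labels and the methods name different library kits. The 5 entries that name no gene held 27.0% to 29.3% of reads and were left out; ambiguous reads, such as those of shared constant exons, made up 2.86% to 3.35%. Symbols, positions and exon lengths came from GENCODE 44. All 8 libraries were fitted with edgeR (4.0.16, R 4.3.3): default expression filter, TMM scaling, 1 mean per group, quasi-likelihood test and Benjamini-Hochberg adjustment over all genes tested within each of 5 comparisons. DESeq2 (1.42.0), which the study used, was an alternative, as were other scalings, no filter, only the groups compared, a replicate block, a GC correction and leaving out each library. Replicates differed by more than sampling noise. Intervals and limits cover counting error only, since PCR copies are not independent molecules. Named genes were SMARCB1, members that passed the filter or led a cluster, and up to 3 called genes per list and direction at a mean of at least 5 CPM. Members, lists and this rule were chosen with earlier results of these data known. The steps were tested on simulated counts.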

Additional observations from a re-analysis of the deposited data

Results flagged for a closer look

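No clustered protocadherin gene was called for a difference between the Dox effects of the lines. Among the genes named from the other lists, 4 were called by edgeR in that test, which subtracts the log2 fold change in the GFP line from that in the SMARCB1 line. The methyltransferase DNMT3B differed by 0.61 (SE 0.122, edgeR adjusted p 0.00432) and was called under all 14 alternatives. JUP differed by 0.81 (standard error 0.135, edgeR adjusted p 0.000787), also called under all 14. In DMSO both genes were lower in the SMARCB1 line than in the GFP line, DNMT3B by a log2 fold change of -1.33 and JUP of -0.92. LRIF1 differed by -0.54 (standard error 0.126, edgeR adjusted p 0.0128), and the call was lost without GFP DMSO replicate 2 (-0.49, adjusted p 0.0863), SMARCB1 DMSO replicate 1 (-0.40, 0.0678), GFP Dox replicate 1 (-0.53, 0.0661) or GFP Dox replicate 2 (-0.55, 0.0536). RNF14 differed by -0.46 (standard error 0.114, edgeR adjusted p 0.0209), and the call was lost under 5 alternatives, with adjusted p of up to 0.173. Groups of 2 libraries are too small for a test of single outlying libraries.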

How the results depend on the processing

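The count of members called moved most. In DMSO the 3 members called between the lines became 5 when scaled to library totals, 5 without the filter, 7 with the replicate block, 5 with the block and the GC trend removed, and 6 with only the groups compared. In Dox the 3 became 5, 5, 5, 6 and 5 under the same settings in that order. With Dox in the SMARCB1 line 3 became 1 with DESeq2. For the difference of the Dox effects 0 became 1 (PCDHB2) without the filter, with the block, and with the block and the GC trend removed. Leaving out 1 library gave 1 to 3 members in DMSO, 2 to 6 in Dox, 1 to 3 for Dox in the SMARCB1 line, 0 for Dox in the GFP line and 0 to 1 for the difference. Over all genes it gave 3452 to 4489, 4732 to 5659, 1284 to 2009 (1284 without SMARCB1 Dox replicate 1, 1462 without SMARCB1 DMSO replicate 1), 0 and 390 to 805 calls, against 5105, 6185, 2234, 0 and 750 with all libraries; fewer libraries were fitted each time. Without the filter, 1 gene was called for Dox in the GFP line. The same-numbered libraries shared only a number, with correlations of their deviations of 0.0309 to 0.148. The replicate block raised the calls over all genes to 1282 for the difference of the Dox effects (1234 with the GC trend removed) and to 3149 for Dox in the SMARCB1 line. Scaling to library totals shifted the median of all genes between the lines in DMSO by -0.12 on the log2 scale and moved the share of higher calls from 50.9% to 32.1%, for Dox in the SMARCB1 line from 59.4% to 80.0%, and for the difference from 65.2% to 80.8%. On CPM in place of CPM per kb, PCDHB2 took 85.1% in place of 83.5% of the beta cluster in SMARCB1 DMSO and 86.4% in place of 84.8% in GFP Dox, and the sum over all members in SMARCB1 DMSO was 84.0 CPM when scaled to library totals. The causes were not tested. Depth limits the low members, since 32 of 53 had too few reads to be tested.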

Other observations

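The summed level of the gamma cluster was higher in the library numbered 2 in 4 of 4 groups, a pattern noticed in these data. In the SMARCB1 line the sums were 1.02 and 1.24 CPM per kb without Dox and 1.11 and 2.13 with it, and in the GFP line 1.62 and 2.28, and 1.58 and 2.53. The alpha and beta clusters were higher in the library numbered 2 in 2 of 4 groups each. The labels do not say what the number stands for.

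Some neighbouring members differed widely in level. PCDHB1, the first beta gene, had at most 3 reads in any library, and PCDHB2, the next, had 1211 to 1720. Other neighbours were closer, such as PCDHA11 and PCDHA12, at 1.23 and 2.84 CPM per kb on average over the 8 libraries.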
